A study of Mus musculus with 12 samples.

Results

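The comparison described here is that of CT26 tumors given DSP-0509 together with an anti-PD-1 antibody with CT26 tumors given the antibody alone, so it asks what the addition of DSP-0509 changed while PD-1 was blocked. Its members were taken by their treatment labels, 3 combination tumors and 3 anti-PD-1 antibody tumors of the 12 tumors in the series. CT26 is a mouse colon carcinoma line, implanted into the flank of Balb/c mice. The combination mice received DSP-0509 at 5 mg/kg intravenously and the antibody at 200 µg per mouse, the anti-PD-1 antibody mice received the antibody at 200 µg per mouse with no DSP-0509, and both groups were assigned at a tumor volume of 130 to 170 mm3 per the sample labels. The study's methods give 6 to 10 weeks as the age of its mice in general, and tumors were resected 4 days after dosing. The remaining 6 tumors, 3 with DSP-0509 alone and 3 with vehicle, served here to estimate the spread and to set the effect of DSP-0509 without the antibody beside its effect with it. All tumors came from a single implanted line, each was taken whole from a separate mouse, and only 1 time point was measured. In RNA from whole tumors, fewer cells of a type and less RNA per cell cannot be told apart.

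Toll-like receptor 7 (TLR7) is an endosomal sensor of single-stranded RNA in plasmacytoid dendritic cells, B cells and some myeloid cells, and DSP-0509 is a synthetic agonist of it. Its adaptor MyD88 passes the signal through IRAK kinases and TRAF6 to NF-κB and to the interferon regulatory factors IRF5 and IRF7, which drive inflammatory cytokines and type I interferon. PD-1 is a receptor on activated T cells that damps their response when it binds PD-L1 or PD-L2, and antibodies against it relieve this brake. Interferon-γ from T cells and NK cells induces PD-L1, chemokines for CXCR3-bearing T cells and guanylate-binding proteins in many cell types.

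RNA was counted on the nCounter system with the mouse PanCancer immune panel, in which each gene has a barcoded probe and no amplification is used. Values are counts multiplied by 1 factor per tumor. Of 750 endogenous genes, 646 reached a value of 20 in 3 or more tumors and were tested. Total counts were 933616 to 1155691 per combination tumor (median 1115391) and 845239 to 982137 per anti-PD-1 antibody tumor (median 947299). The mean of the negative control probes was between 6.25 and 12.5 counts in the 12 tumors, and values near 20 therefore lie close to background. The 20 housekeeping genes had a median log2 fold change of -0.05 between the combination and the antibody, and 0 of them differed at an adjusted p under 0.05 (limma). Of 6 carcinoma genes, 4 had a log2 fold change above 0, and the median was 0.01. They ran from -0.09 for Msln to 0.75 for Egfr. Msln read 1969, 1833 and 1713 in combination tumors and 2083, 1747 and 2038 in anti-PD-1 antibody tumors. Epcam read 18.0, 107 and 50.4 in combination tumors 1, 2 and 3 and 32.1, 64.4 and 46.2 in anti-PD-1 antibody tumors 1, 2 and 3. Egfr read 92.9, 129 and 74.7 in combination tumors and 46.0, 81.3 and 49.2 in antibody tumors, which overlap. The leukocyte gene Ptprc read 1034, 1259 and 1755 in combination tumors and 566, 1076 and 1191 in antibody tumors.

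A single tumor of the 6 compared stood apart. On the first principal component of the 646 genes, which held 52.9% of the variance over the 12 tumors, the combination tumors lay at 2.69, 9.54 and 12.4 and the anti-PD-1 antibody tumors at -10.2, 5.13 and 6.00, with anti-PD-1 antibody tumor 1 on the far side. Among all 12, vehicle tumor 1 lay further out, at -19.1, and tumor 1 was the lowest of every group. Anti-PD-1 antibody tumor 1 was the lowest of the 6 for many of the immune genes below, so differences are given with and without it where it weighs on them. The median log2 fold change over all genes tested was 0.20 with it and 0.08 without it. Changes of a gene or list are to be read against this shift, since 459 of the 646 genes (71.1%) had a log2 fold change above 0.

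No gene passed the test across the panel. With limma on log2(value + 1) over all 12 tumors and Benjamini-Hochberg adjustment, 0 of 646 genes (0%) were called at an adjusted p under 0.05, and Il12rb2 and Cd274 came closest, both at an adjusted p of 0.146. At an unadjusted p under 0.05 there were 66 genes (10.2%), 61 of them higher and 5 lower in the combination. In 100 genes (15.5%) all 3 combination tumors lay above all 3 anti-PD-1 antibody tumors, and in 20 genes (3.10%) all 3 lay below. Centring each tumor on its median gene gave 53 genes above and 114 below, so the balance between higher and lower genes turns with the scaling. Counts of separated genes in the lists below are to be read against these shares of 15.5% and 3.10%. Those after centring are to be read against 53 and 114 of 646. With a tumor left out, a smaller group separates more easily. The log2 fold changes had a median standard error (SE) of 0.25, which sets how small a difference can be seen with 3 tumors a group.

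**Figure D1:**
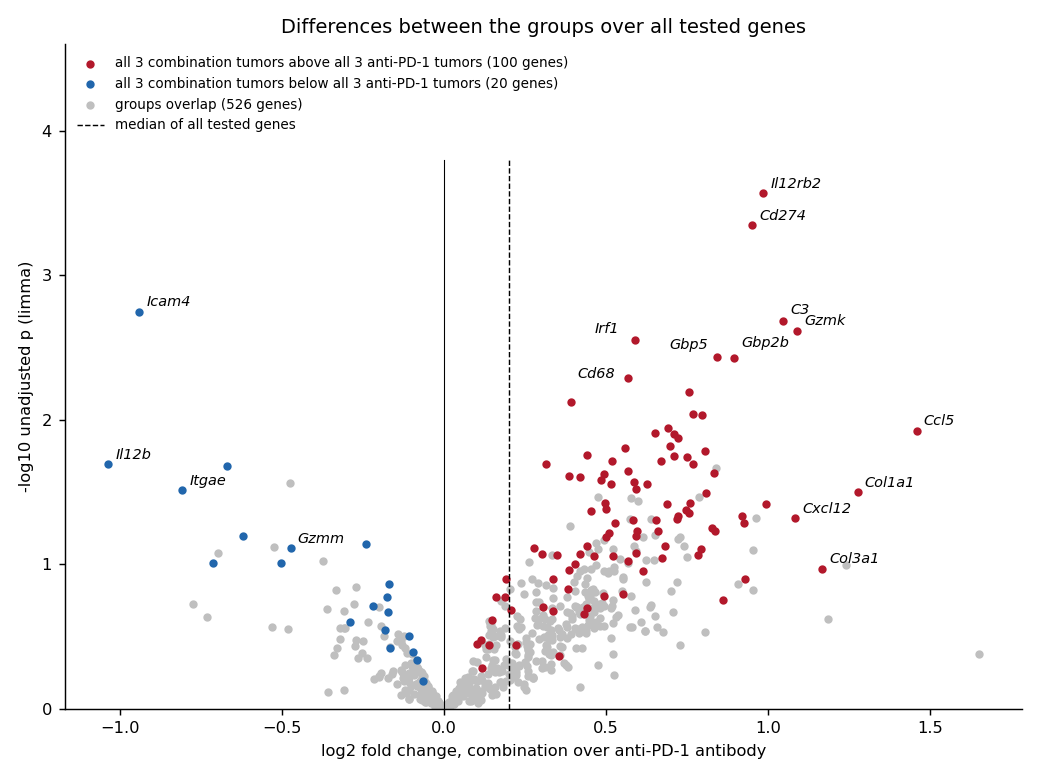
Log2 fold change of the combination over anti-PD-1 antibody (x axis) against -log10 of the unadjusted limma p (y axis) for the 646 genes tested. Red points are the 100 genes with every combination tumor above every anti-PD-1 antibody tumor, blue points the 20 with every combination tumor below, grey points the rest, and the dashed line marks the median log2 fold change of 0.20. Il12rb2 and Cd274 are at the top of the plot.

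Tumors of each group carry numbers 1 to 3. Deviations from the group means correlated at 0.69 between the combination and anti-PD-1 antibody tumors numbered 1. The correlation was only 0.29 for number 2 and 0.14 for number 3. Combination tumor 3 correlated more with anti-PD-1 antibody tumor 2 (0.37). With the tumor number as a block in the fit, limma called 3 of 646 genes (0.464%), all higher in the combination, at an adjusted p of 0.0273 each: Cd274, Il12rb2 and Abcg1. The block fit of only the 6 tumors compared called 0 genes, and so did the block fit of all 12 tumors after centring on the median gene. Leaving out any 1 of the 6 tumors compared also left 0 genes called with the block, at a smallest adjusted p of 0.0729 (without combination tumor 1) to 0.219 (without anti-PD-1 antibody tumor 2) and with 83 to 127 genes at an unadjusted p under 0.05. The 3 calls were thus made only with all 6 tumors in the fit. Abcg1 is not among the genes that the naming rule takes and is named because the block fit called it.

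Cd274 encodes PD-L1, the ligand of the receptor that the antibody blocks, and it is a classical interferon-γ target. Its value was 2153, 1897 and 2271 in combination tumors 1, 2 and 3, against 1191, 954 and 1128 in anti-PD-1 antibody tumors 1, 2 and 3. Every combination tumor was above every antibody tumor, with little spread in either group. The log2 fold change was 0.95 (SE 0.19, limma adjusted p = 0.146, or SE 0.14 and adjusted p = 0.0273 with the block), and without anti-PD-1 antibody tumor 1 it was 1.02.

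Il12rb2 encodes the signalling chain of the interleukin-12 receptor, found on activated T cells and NK cells. It read 63.3, 74.6 and 79.3 in combination tumors, against 38.5, 27.7 and 43.3 in anti-PD-1 antibody tumors, so the groups were again separate. Its log2 fold change was 0.99 (SE 0.18, limma adjusted p = 0.146, or SE 0.15 and adjusted p = 0.0273 with the block). Abcg1, a cholesterol exporter of macrophages and other cells, read 592, 697 and 910 in combination tumors 1, 2 and 3 and 347, 456 and 543 in anti-PD-1 antibody tumors 1, 2 and 3. In both groups tumor 1 was the lowest and tumor 3 the highest. Its log2 fold change of 0.71 had an SE of 0.24 without the block (limma adjusted p = 0.437) and 0.10 with it (adjusted p = 0.0273).

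**Figure D2:**
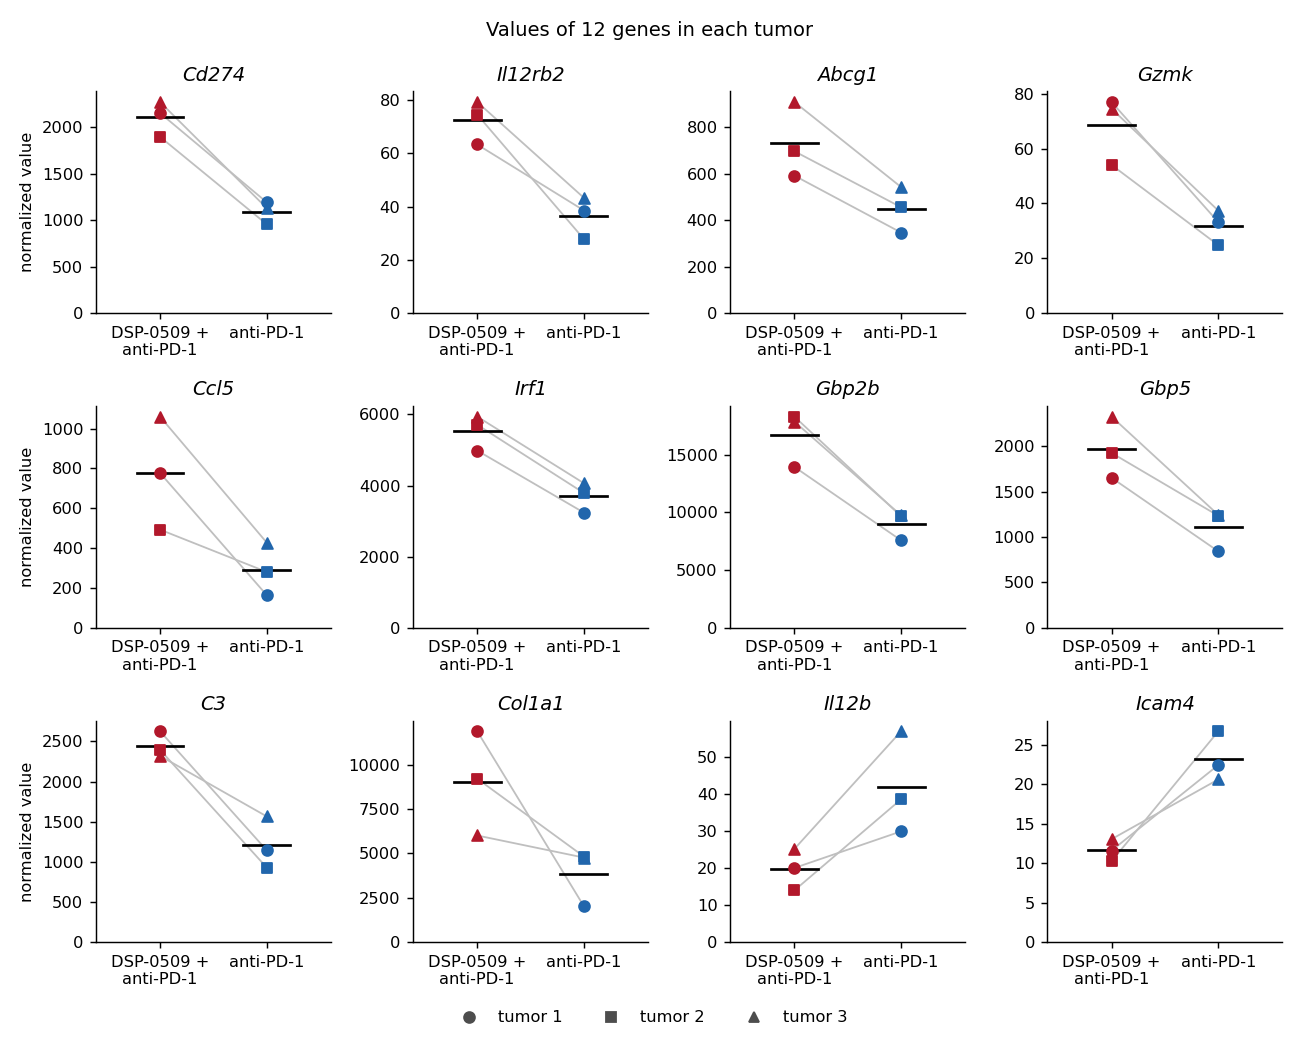
Normalized values (y axes, linear and from 0) of 12 genes in the 3 combination tumors (red, left) and the 3 anti-PD-1 antibody tumors (blue, right), with lines joining tumors of the same number and bars at the group means. In 10 of the 12 genes every combination tumor lies above every anti-PD-1 antibody tumor, and in Il12b and Icam4 every combination tumor lies below.

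Because several of the genes with the smallest p are known interferon targets, the stretch from 250 bases before to 50 bases after the start of each gene (RefSeq, GRCm38.p6) was searched for GAAA followed by any 2 bases and GAAA again, the core of the interferon-stimulated response element, and TTCNNNGAA, the core of the gamma-activated site, on both strands. Of 32851 such promoters in the whole table, 3.44% held the first and 8.30% the second. Per gene, 42 of the 472 tested genes with an entry (8.90%) held the first core and 67 (14.2%) the second. The first core was in 10 of 20 genes with an entry among 26 tested antiviral genes and in 5 of 10 with an entry among 14 interferon-γ-related genes, and the second in 4 of 20 and 5 of 10. The naming rule points to the promoters of the genes with the largest differences that have an entry, Col3a1, Gzmk, Cxcl12 and C3, and these held neither core. Ccl5 and Col1a1 have no entry. Of the genes with the 10 smallest p, 2 held the first core and 3 the second. Of the 8 with an entry among the 12 largest separated rises, 0 held the first and 1 the second. Printed here instead, as chosen after their values and matches were seen, are those of the genes with the 10 smallest p that held a core. The matched letters are in capitals, and no match in these 4 overlaps another. They lie at chr6:67376139-67376438 (minus strand), chr11:53769764-53770063 (plus strand), chr3:142496684-142496983 (plus strand) and chr3:142594597-142594896 (plus strand). Irf1 has another start in the table, which held neither core. Each is written 5′ to 3′ on the strand of its gene.
Il12rb2: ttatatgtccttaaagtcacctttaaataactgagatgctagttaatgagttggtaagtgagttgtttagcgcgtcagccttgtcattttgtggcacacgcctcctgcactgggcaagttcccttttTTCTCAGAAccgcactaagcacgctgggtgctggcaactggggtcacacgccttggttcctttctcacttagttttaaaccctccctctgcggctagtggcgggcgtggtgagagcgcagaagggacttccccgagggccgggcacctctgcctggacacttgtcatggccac
Irf1: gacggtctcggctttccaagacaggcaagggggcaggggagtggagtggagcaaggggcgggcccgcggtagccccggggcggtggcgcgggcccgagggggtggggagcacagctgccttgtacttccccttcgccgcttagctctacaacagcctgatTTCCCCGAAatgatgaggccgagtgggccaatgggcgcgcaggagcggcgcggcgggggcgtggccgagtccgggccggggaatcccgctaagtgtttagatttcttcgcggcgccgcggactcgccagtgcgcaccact
Gbp5: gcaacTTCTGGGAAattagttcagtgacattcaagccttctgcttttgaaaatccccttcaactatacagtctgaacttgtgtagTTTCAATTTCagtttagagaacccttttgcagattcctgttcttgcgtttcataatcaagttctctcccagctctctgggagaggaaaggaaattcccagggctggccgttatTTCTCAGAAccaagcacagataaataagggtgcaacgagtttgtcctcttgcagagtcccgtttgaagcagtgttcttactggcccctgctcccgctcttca
Gbp2b: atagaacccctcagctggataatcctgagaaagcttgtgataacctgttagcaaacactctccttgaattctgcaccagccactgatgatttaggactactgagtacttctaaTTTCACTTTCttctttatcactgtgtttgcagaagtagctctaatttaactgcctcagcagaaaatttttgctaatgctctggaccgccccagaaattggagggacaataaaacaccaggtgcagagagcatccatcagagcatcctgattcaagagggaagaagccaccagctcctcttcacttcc
A match describes letters in this window only. Il12rb2 and Irf1 hold 1 gamma-activated site core each, Gbp2b holds 1 interferon-stimulated response element core, and Gbp5 holds 3 matches with both cores among them. Cd274, with the second smallest p, held neither core in its window. Nor did Icam4, C3, Gzmk, Cd68 and Mertk, the others of the 10.

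Neither the drug target nor a gene of its signalling chain was called with or without the block. With array weights limma called Irak2 (adjusted p = 0.0271) among other genes named here. Those included Cd274 (0.00662), Il12rb2 and Icam4 (0.0124 each), and Gbp2b and Irf1 (0.0146 each). Tlr7 itself read 137, 214 and 189 in combination tumors and 81.3, 167 and 179 in anti-PD-1 antibody tumors. The ranges overlapped, and the log2 fold change of 0.39 (SE 0.36) shrank to 0.03 without anti-PD-1 antibody tumor 1. The 15 members of the TLR7 chain had a median log2 fold change of 0.01 (-0.23 after centring and -0.24 after quantile normalization), below the 0.20 of all genes tested. With anti-PD-1 antibody tumor 1 left out 4 were separated upward and 5 downward. With all tumors 0 of 15 were separated downward and 2 upward, beside 15.5% of all genes. Those 2 were the IRAK kinase gene Irak2, at 482, 494 and 617 in combination tumors against 446, 361 and 364 in anti-PD-1 antibody tumors, and Irf7, at 2256, 2721 and 2928 against 1572, 2049 and 2231. Their log2 fold changes were 0.44 each, with SEs of 0.16 for Irak2 and 0.32 for Irf7, and Irf7 was at 0.29 without anti-PD-1 antibody tumor 1. The adaptor gene Myd88 was at -0.08 (SE 0.19). Tlr8, the closest relative of Tlr7, read 387, 473 and 617 in combination tumors and 201, 370 and 384 in anti-PD-1 antibody tumors, which are separate (log2 fold change 0.66, SE 0.31), and without anti-PD-1 antibody tumor 1 the difference was 0.36. None of these passed the test (limma adjusted p from 0.437 for Irak2 to 0.899 for Myd88). With the block and array weights together Tlr8 (adjusted p = 0.0378) and Irak2 (0.0478) were called, again among other genes, such as Cd274 (0.00854).

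Interferon-stimulated antiviral genes were higher in the combination as a group. All 26 tested members had a log2 fold change above 0, with a median of 0.44 against 0.20 over all genes tested, and in 18 of 26 every combination tumor lay above every anti-PD-1 antibody tumor, beside 15.5% of all genes. None was called with or without the block. With array weights the genes limma called included Zbp1 (adjusted p = 0.0368). With the block and array weights together they included Zbp1 (0.0429) and Rsad2 (0.0490). After centring on the median gene the list median was 0.19 and 12 of 26 were separated upward. Without anti-PD-1 antibody tumor 1 the median was 0.29 and 18 were. Rsad2, whose product viperin blocks virus replication, read 406, 238 and 272 in combination tumors and 166, 175 and 171 in anti-PD-1 antibody tumors. Combination tumor 1 was the highest, while the antibody tumors were nearly alike, and the log2 fold change was 0.80 (SE 0.25, limma adjusted p = 0.437). Zbp1, a sensor of Z-form nucleic acid, read 3808, 4593 and 5390 in combination tumors and 2342, 2810 and 3186 in anti-PD-1 antibody tumors, a log2 fold change of 0.72 (SE 0.24). Ifit3, a partner of the RNA-binding IFIT proteins, followed at 0.71 (SE 0.25) and Oas3, which makes the activator of RNase L, at 0.69 (SE 0.23). The lowest member was Ifi27 at 0.06 (SE 0.14), which is below 0 after centring (-0.19) or quantile normalization (-0.19).

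**Figure D3:**
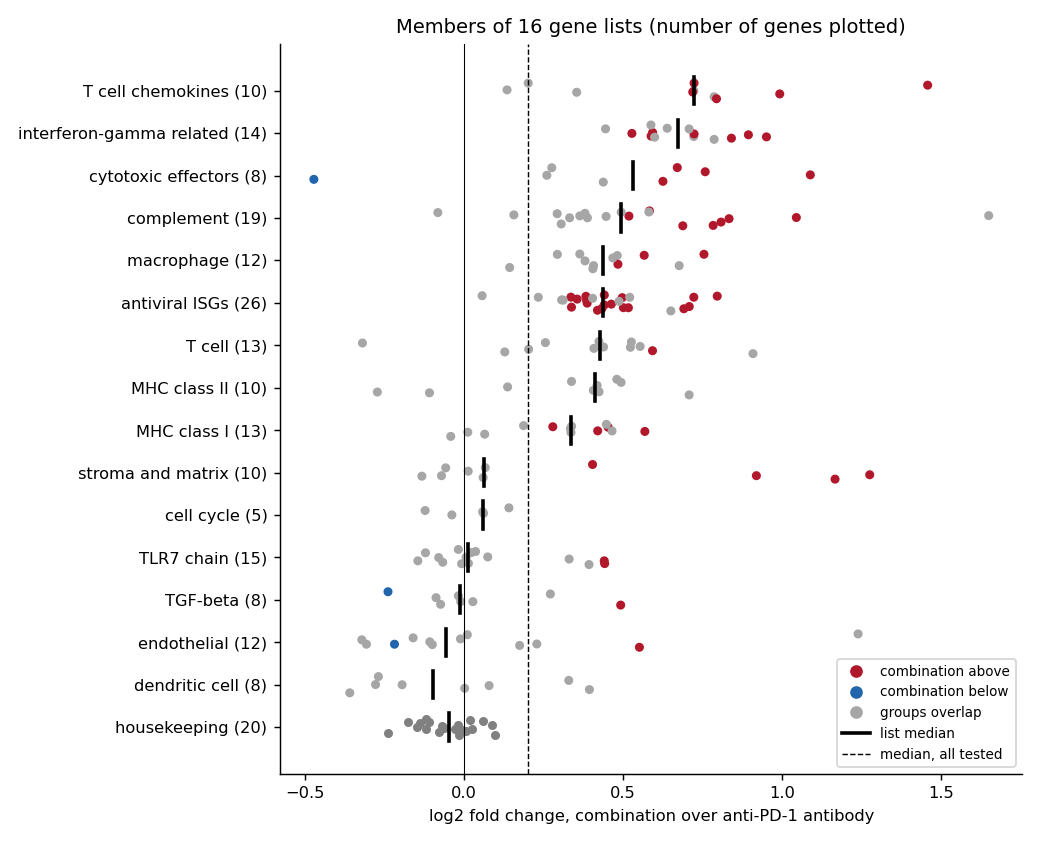
Log2 fold changes of the combination over anti-PD-1 antibody (x axis) for the tested members of 16 gene lists (rows, with the number of genes), each point a gene, red where all 3 combination tumors lie above all 3 anti-PD-1 antibody tumors, blue where all 3 lie below and grey where the groups overlap (housekeeping genes are all grey). Thick bars are list medians, from 0.72 for T cell chemokines to -0.10 for dendritic cell genes, and the dashed line is the median of all genes tested, 0.20.

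Genes related to interferon-γ had a larger median. All 14 members were above 0, with a median log2 fold change of 0.67 and 7 of 14 separated upward (0.43 and 8 of 14 after centring, 0.38 and 7 of 14 without anti-PD-1 antibody tumor 1). Cd274 was the highest of them and the only one called with the block. The guanylate-binding protein gene Gbp2b, one of the most abundant immune transcripts here, read 13934, 18293 and 17863 in combination tumors and 7558, 9648 and 9721 in anti-PD-1 antibody tumors. No antibody tumor came near the lowest combination tumor, and its log2 fold change was 0.89 (SE 0.24, limma adjusted p = 0.303). Gbp5, of the same family, read 1653, 1927 and 2328 in combination tumors and 841, 1234 and 1243 in anti-PD-1 antibody tumors, a log2 fold change of 0.84 (SE 0.23, adjusted p = 0.303). Irf1, a transcription factor that interferon-γ induces, read 4985, 5713 and 5941 against 3235, 3787 and 4063 in antibody tumors, at 0.59 (SE 0.15, adjusted p = 0.303). The cytokine gene Ifng was low, at 30.6, 33.6 and 70.0 in combination tumors and 19.3, 36.7 and 39.3 in anti-PD-1 antibody tumors. Only combination tumor 3 lay above the antibody tumors, and the log2 fold change of 0.44 (SE 0.38) was 0.08 without it. Ido1, the tryptophan-degrading enzyme, read 86.6, 147 and 152 in combination tumors and 69.5, 77.3 and 94.4 in anti-PD-1 antibody tumors, with combination tumor 1 inside the range of the antibody tumors.

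Chemokines for T cells had a median log2 fold change of 0.72 over 10 members, with 5 separated upward (0.48 and 2 of 10 after centring, 0.37 and 5 of 10 without anti-PD-1 antibody tumor 1). Ccl5, which attracts T cells, had the largest difference of all genes whose groups were separate. It read 777, 492 and 1060 in combination tumors and 163, 279 and 427 in anti-PD-1 antibody tumors. The groups were separate although both spread more than 2-fold, and the log2 fold change was 1.46 (SE 0.48, limma adjusted p = 0.437), or 1.10 without anti-PD-1 antibody tumor 1. Ccl3, an inflammatory chemokine of macrophages and T cells, read 495, 306 and 521 in combination tumors and 276, 122 and 295 in anti-PD-1 antibody tumors, a log2 fold change of 0.99 (SE 0.42), or 0.59 without anti-PD-1 antibody tumor 2. Its tumors numbered 2 were the lowest of both groups. The CXCR3 ligand genes Cxcl10 and Cxcl11 were at 0.72 (SE 0.32) and 0.79 (SE 0.32). For these 2 genes the difference depended on anti-PD-1 antibody tumor 1, which read 801 for Cxcl10 against 1661 and 1708 in the other antibody tumors, and without it their log2 fold changes were 0.37 each. Cxcr6, a homing receptor of effector T cells, read 302, 292 and 774 in combination tumors and 193, 284 and 238 in anti-PD-1 antibody tumors, and its log2 fold change of 0.79 was 0.33 without combination tumor 3.

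Cytotoxic genes were mixed in detail. Of 8 members, 4 were separated upward and 1 downward, with a median log2 fold change of 0.53 (0.28 after centring with the same counts, 0.31 without anti-PD-1 antibody tumor 1). Gzmk, a granzyme of memory-type CD8 T cells, read 77.1, 54.1 and 74.7 in combination tumors and 33.2, 24.8 and 37.4 in anti-PD-1 antibody tumors, a log2 fold change of 1.09 (SE 0.27, limma adjusted p = 0.303). Gzmb, the main granzyme of killer cells, read 478, 518 and 447 in combination tumors and 252, 260 and 347 in anti-PD-1 antibody tumors (log2 fold change 0.76, SE 0.32). The pore-forming Prf1 and the death ligand Fasl were at 0.63 and 0.67 (SE 0.24 each). By contrast Gzma overlapped between the groups, at 861, 1285 and 889 in combination tumors and 466, 944 and 1258 in anti-PD-1 antibody tumors, and its log2 fold change of 0.28 (SE 0.53) turned to -0.13 without anti-PD-1 antibody tumor 1. Gzmm was lower in the combination, at 12.7, 15.9 and 18.7 against 23.5, 21.8 and 20.6 in anti-PD-1 antibody tumors, values close to the negative control probes.

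Separated genes were no more frequent among T cell and NK cell genes than among all genes (15.5% upward, 3.10% downward). The 13 members had a median log2 fold change of 0.43 with 1 separated upward (0.18 and 0 after centring, 0.20 and 1 without anti-PD-1 antibody tumor 1), and 0 of 9 NK cell genes were separated in either direction at a median of 0.52 (0.15 without anti-PD-1 antibody tumor 1). Cd8a, a chain of the CD8 co-receptor, read 171, 186 and 455 in combination tumors and 126, 172 and 172 in anti-PD-1 antibody tumors. Combination tumor 3 held more than the other combination tumors by over 2-fold, and it was also the highest for the T cell receptor chain gene Cd3g, at 367, 346 and 748 against 251, 329 and 334 in antibody tumors. Their log2 fold changes were 0.65 (SE 0.35) and 0.59 (SE 0.31), and without combination tumor 3 they were 0.20 and 0.24. Pdcd1, the gene of PD-1 itself, read 316, 272 and 551 in combination tumors and 159, 222 and 239 in anti-PD-1 antibody tumors (log2 fold change 0.83, SE 0.38, limma adjusted p = 0.521, or 0.52 without combination tumor 3). The antibody binds the protein and both groups received it, so this is the transcript alone. Of the 8 inhibitory ligand and enzyme genes, 2 were separated upward, Cd274 and Entpd1, the ectonucleotidase CD39, at 458, 600 and 706 in combination tumors against 282, 453 and 439 in anti-PD-1 antibody tumors (log2 fold change 0.59, or 0.38 without anti-PD-1 antibody tumor 1). Pdcd1lg2, which encodes PD-L2, overlapped, at 103, 78.3 and 156 in combination tumors and 71.7, 46.6 and 79.6 in anti-PD-1 antibody tumors.

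Some interleukin receptor genes were separated upward and others overlapped. Il12rb1, the other chain of the interleukin-12 receptor, read 87.6, 111 and 143 in combination tumors and 46.0, 72.3 and 82.6 in anti-PD-1 antibody tumors, a log2 fold change of 0.77 (SE 0.28, limma adjusted p = 0.437). Il18r1 was at 0.61 (SE 0.35), Il7r at 0.77 (SE 0.24) and Il15ra at 0.68 (SE 0.34), each with the groups separate. For Il18r1 the groups barely parted, at 171 in combination tumor 1 and 170 in anti-PD-1 antibody tumor 3. Without combination tumor 3 Il18r1 was at 0.31, and without anti-PD-1 antibody tumor 1 Il15ra was at 0.43. Il18rap, the other chain of the interleukin-18 receptor, overlapped, at 1245, 1308 and 1360 in combination tumors and 1328, 1102 and 1102 in anti-PD-1 antibody tumors (log2 fold change 0.15, SE 0.13). The shared chains Il2rb and Il2rg also overlapped, at 0.54 (SE 0.41) and 0.42 (SE 0.32). Il12b, the shared subunit of interleukin-12 and interleukin-23 from dendritic cells and macrophages, read 20.1, 14.0 and 25.2 in combination tumors and 30.0, 38.6 and 57.0 in anti-PD-1 antibody tumors. Every combination tumor lay below every antibody tumor, at a log2 fold change of -1.04 (SE 0.38, adjusted p = 0.437), although the combination values are close to the highest negative control probe of these tumors, 13, 19 and 19 counts.

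Antigen presentation genes were separated in part. Of 13 MHC class I genes 4 were separated upward, beside 15.5% of all genes. Their median log2 fold change was 0.34 (0.09 after centring, with 3 upward and 2 downward). Of 10 MHC class II genes 0 were separated upward, at a median of 0.41 that was 0.09 without anti-PD-1 antibody tumor 1. H2-T23, which encodes the ligand of an inhibitory NK receptor, read 5567, 6363 and 7776 in combination tumors and 3518, 4588 and 5231 in anti-PD-1 antibody tumors, a log2 fold change of 0.57 (SE 0.21). Nlrc5, the transactivator of class I genes, was at 0.45 (SE 0.20), also with the groups separate. For class II, Ciita, the corresponding transactivator, read 117, 164 and 402 in combination tumors and 56.7, 187 and 165 in anti-PD-1 antibody tumors, and H2-Ab1 read 3126, 3513 and 8012 against 2202, 4032 and 4152. Combination tumor 3, the highest for T cell genes, was far above the rest for both, and anti-PD-1 antibody tumor 1 was the lowest. Without combination tumor 3 the log2 fold change of H2-Ab1 was -0.01, against 0.42 (SE 0.38) with all tumors.

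Several macrophage and complement genes were higher in the combination. Cd68, a lysosomal glycoprotein of macrophages, read 2230, 2568 and 2428 in combination tumors and 1464, 1534 and 1905 in anti-PD-1 antibody tumors, a log2 fold change of 0.57 (SE 0.16, limma adjusted p = 0.366). Mertk, a receptor for the uptake of dying cells, read 293, 187 and 246 in combination tumors and 169, 123 and 135 in anti-PD-1 antibody tumors (log2 fold change 0.75, SE 0.22, adjusted p = 0.418). These were 2 of the 3 separated among 12 macrophage genes, beside 15.5% of all genes. The list median log2 fold change of 0.44 was 0.19 after centring. Without anti-PD-1 antibody tumor 1 it was 0.10, close to the 0.08 of all genes tested. Of 19 complement genes 7 were separated upward at a median of 0.49 (0.25 and 5 after centring). C3, the central component, read 2627, 2395 and 2320 in combination tumors and 1143, 927 and 1565 in anti-PD-1 antibody tumors, a log2 fold change of 1.05 (SE 0.26, adjusted p = 0.303). C4b and the C1 inhibitor gene Serping1 were at 0.83 (SE 0.31) and 0.81 (SE 0.33). Cfd had the largest log2 fold change of all, 1.65, with an SE of 1.96, and its values ran over 47.5, 2244 and 378 in combination tumors and 8.56, 323 and 430 in anti-PD-1 antibody tumors, and it was at -0.11 without anti-PD-1 antibody tumor 1. Cfd is made mainly by fat cells. Nos2, the inducible nitric oxide synthase, read 189, 114 and 122 in combination tumors and 122, 46.6 and 61.0 in anti-PD-1 antibody tumors, so that tumor 1 was the highest of both groups (log2 fold change 0.96, SE 0.43, or 0.19 and adjusted p = 0.0977 with the block). Tnf was at 0.65 (SE 0.29), with every combination tumor above every antibody tumor, and at 0.36 without combination tumor 3.

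Among 10 stroma and matrix genes 4 were separated upward, but 1 after centring and 0 after quantile normalization (1 downward). Col1a1, the main chain of fibrillar collagen, read 11877, 9204 and 6006 in combination tumors and 2015, 4816 and 4761 in anti-PD-1 antibody tumors, a log2 fold change of 1.28 (SE 0.51, limma adjusted p = 0.459). Col3a1 was at 1.17 (SE 0.66) and the fibroblast protease gene Fap at 0.92 (SE 0.41). Cxcl12, a chemokine of fibroblasts that is outside this list, was at 1.08 (SE 0.48). In Col1a1, Col3a1, Fap and Cxcl12 the groups were separate. Anti-PD-1 antibody tumor 1 was the lowest in each, and without it the log2 fold changes were 0.86, 0.71, 0.53 and 0.84. Of the 10 stroma and matrix genes 7 were above 0, and the lowest was Fn1 at -0.13. Their median was 0.06, and -0.18 after centring and -0.12 after quantile normalization. Endothelial genes had a median of -0.06 over 12 with 1 separated in each direction. That median was -0.30 after centring (2 separated downward), -0.33 after quantile normalization (3 downward) and -0.27 without anti-PD-1 antibody tumor 1 (1 upward, 5 downward). For the vascular gene Vwf the values were 94.0, 164 and 55.1 in combination tumors and 15.0, 65.4 and 61.9 in anti-PD-1 antibody tumors, which overlap.

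As deposited, few genes were lower, with 20 of 646 separated downward. After centring or quantile normalization more genes were separated downward than upward. Icam4, an adhesion molecule of red cells, read 11.6, 10.3 and 13.1 in combination tumors and 22.5, 26.8 and 20.6 in anti-PD-1 antibody tumors, a log2 fold change of -0.94 (SE 0.23, limma adjusted p = 0.303). Its combination values are at the level of the negative control probes, so the size of this difference is uncertain. Itgae, which encodes CD103 of tissue-resident T cells and a subset of dendritic cells, read 54.9, 47.6 and 57.9 in combination tumors and 73.8, 95.1 and 118 in anti-PD-1 antibody tumors. These values lie clear of the negative control probes, and the log2 fold change was -0.81 (SE 0.32, adjusted p = 0.459). The dendritic cell genes Itgax and Flt3 were at -0.36 (SE 0.26) and -0.28 (SE 0.20) with overlapping groups. Dendritic cell genes went both ways, since 4 of the 8 were above 0, the highest Irf8 at 0.39. The 8 had a median of -0.10 with 0 separated either way. Of the 8 dendritic cell genes, 3 were separated downward after centring (median -0.34) and after quantile normalization (-0.37), and 2 without anti-PD-1 antibody tumor 1 (-0.27). In the TGF-β list (median -0.01 over 8, 0.04 after rescaling to the housekeeping genes, and -0.26 after centring or -0.24 after quantile normalization with 3 separated downward in both), Smad3, a transducer of the signal, read 723, 766 and 735 in combination tumors and 824, 877 and 928 in anti-PD-1 antibody tumors, while the ligand gene Tgfb2 was higher, at 31.7, 36.4 and 31.7 against 30.0, 23.8 and 17.7.

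To ask whether DSP-0509 acted otherwise when PD-1 was blocked, its effect with the antibody was set against its effect without it. The interaction gave 0 of 646 genes (0%) at an adjusted p under 0.05 (limma, smallest adjusted p 1.00) and 9 at an unadjusted p under 0.05. The median log2 fold change over all genes was 0.20 for the combination over the antibody and 0.20 for DSP-0509 over vehicle. All 3 DSP-0509 tumors lay above all 3 vehicle tumors in 106 of the 646 genes and below them in 24. Of the 100 genes with the combination tumors above the antibody tumors, 45 were among the 106 and 0 among the 24. Of the 20 lower genes 5 were among the 24 and 0 among the 106. Both comparison groups held a low tumor. On the first principal component vehicle tumor 1 (-19.1) and anti-PD-1 antibody tumor 1 (-10.2) were the lowest of the 12, and how far this shaped the overlap was not tested. Cd274 had log2 fold changes of 0.95 with and 0.87 without the antibody, and Il12rb2 had 0.99 and 1.09. The smallest p belonged to Ido1, at 0.64 with the antibody and 1.93 without it (interaction -1.29, SE 0.40). Its values were 116, 82.9 and 142 in DSP-0509 tumors and 25.0, 39.3 and 23.6 in vehicle tumors, and all 3 anti-PD-1 antibody tumors, at 69.5 to 94.4, were above the vehicle tumors. Itga2b, the platelet integrin chain, followed with an interaction of 0.86 (SE 0.27) and Mertk with 0.94 (SE 0.31), and neither passed. Antiviral genes had medians of 0.44 with and 0.38 without the antibody, interferon-γ-related genes 0.67 and 1.09, and cytotoxic genes 0.53 and 1.12, and no test of a difference was made for lists.

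**Figure D4:**
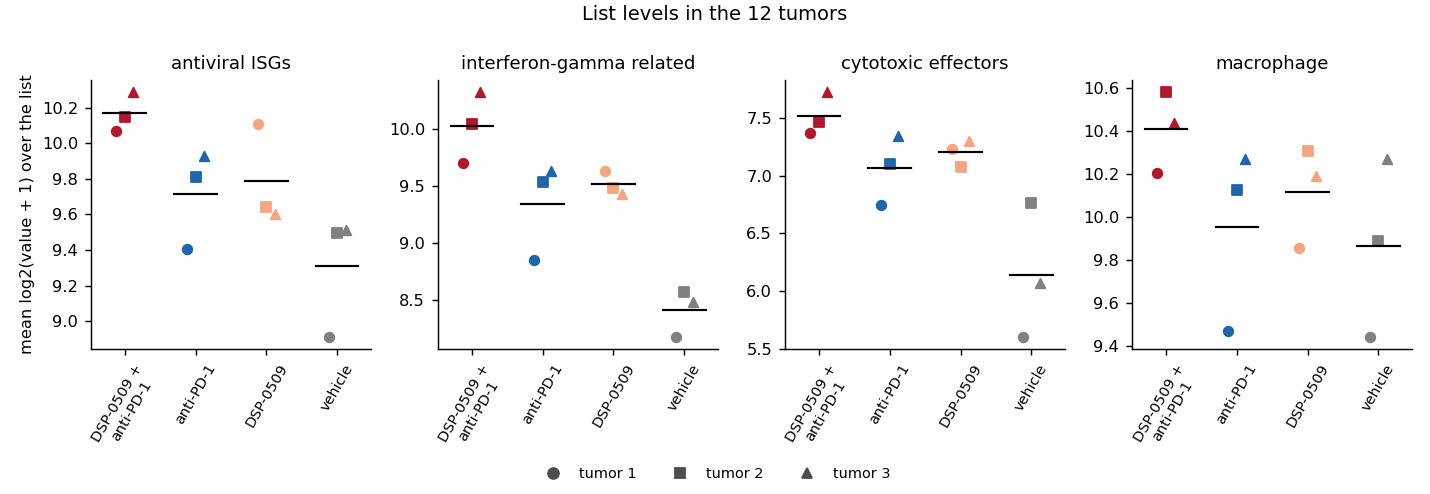
Mean log2(value + 1) over the tested members of 4 lists (y axis) in each of the 12 tumors, with the groups along the x axis as combination, anti-PD-1 antibody, DSP-0509 and vehicle, symbols for the tumor number and bars at the group means. For antiviral, interferon-γ-related and cytotoxic genes the 3 combination tumors lie above the 3 anti-PD-1 antibody tumors, and for macrophage genes combination tumor 1 lies below anti-PD-1 antibody tumor 3.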

How the data were processed

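Total RNA of 12 CT26 tumors was hybridised to the nCounter PanCancer mouse immune panel. The deposited values are a signal: in nSolver the authors scaled all counts of a tumor by 1 factor, without subtracting background and without scaling the 14 control probes. How the factor was chosen is not given in the sources used here. Totals were read from the step of the values (750407 to 1155691 counts per tumor).

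Values were taken to log2(value + 1), which understates the change of low genes. Genes that reached 20 in 3 or more tumors (646 of 750) were fitted with limma 3.58.1 in R 4.3.3 (lmFit, eBayes) over all 12 tumors, with contrasts for the combination over anti-PD-1 antibody and for the interaction, and Benjamini-Hochberg adjustment over 646 genes. The method was tested on simulated data. Each tumor is a separate mouse. Figures were drawn with Python 3.11.15 and matplotlib 3.10.9. Promoters are from RefSeq (GRCm38.p6).

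Tumor numbers come from the sample titles, and no source says that they mark a litter, batch or day. Deviations from the group means correlated at 0.69, 0.29 and 0.14 between combination and anti-PD-1 antibody tumors of the same number. All were over the 0.1 taken as a sign of pairing, so the fit with the number as a block is given where it changes a call. Pairs of unlike number passed 0.1 too, combination tumor 3 with anti-PD-1 antibody tumor 2 (0.37) and combination tumor 2 with anti-PD-1 antibody tumor 3 (0.24). The threshold therefore cannot show that the numbers mark pairs.

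Named genes were the 12 largest separated differences in each direction, the 10 smallest p, the drug targets and genes the study names, the 4 highest and 4 lowest members of each of 34 lists (all of a short list), and the 3 smallest interaction p. The text gives part of them, and some genes are not reported here. The comparison, the lists and the rule were chosen with earlier results of these data known. A gene counts as separated where the 3 tumors of each group do not overlap. Alternatives were other scalings (housekeeping genes, quantile, median gene), negative control subtraction, a pseudocount of 10, no filter or one of 50, a fit of 6 tumors, array weights, the methods' t-test, the replicate block, and each tumor left out.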

Additional observations from a re-analysis of the deposited data

How the results depend on the processing

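The count of genes called stayed at 0 under every scaling, filter and pseudocount, in the fit of only 6 tumors, after Benjamini-Hochberg adjustment of the methods' t-test, and without any 1 of the 12 tumors (0 to 0). It was 25 with limma array weights (19 higher, 6 lower), which gave anti-PD-1 antibody tumor 1 a weight of 0.23 and combination tumor 2 one of 3.30. The replicate block gave 3 over all 12 tumors, 3 with rescaling to the housekeeping genes, 52 with array weights (49 higher, 3 lower), and 0 with centring, in 6 tumors or without any 1 of the 6 tumors compared. The methods' t-test without adjustment gave 55 (43 higher, 12 lower). Why array weights and the block add calls was not tested. The interaction count was 0 under all alternatives run.

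Genes separated upward numbered 169 after rescaling to the housekeeping genes, 53 after quantile normalization and 53 after centring, against 100, and those separated downward 12, 104 and 114, against 20. Leaving out 1 of the 6 tumors gave 120 to 214 upward and 27 to 69 downward, and a smaller group separates more easily by construction. Without the 4 tumors numbered 1 there were 264 and 85. The median log2 fold change of 0.20 became -0.024 after quantile normalization and -0.047 after centring.

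Of 63 genes followed through the alternatives, 5 changed the sign of their log2 fold change. Some genes named above were not among the 63. Epcam is one of them, and it went from 0.01 to -0.23 without anti-PD-1 antibody tumor 1. With 1 tumor left out, Cfd ran from -0.11 to 3.07 and Gzma from -0.13 to 0.58, both lowest without anti-PD-1 antibody tumor 1, H2-Ab1 from -0.0061 (without combination tumor 3) to 0.67, Ifi27 from -0.021 to 0.15 and Myd88 from -0.28 to 0.055. Gzma was at -0.028 without the tumors numbered 1, H2-Ab1 at -0.037 with array weights, and Ifi27 at -0.19 after quantile normalization and after centring, with the block or without it. With the block and 1 tumor left out, Gzma was at -0.0045 without combination tumor 1, Ifi27 at -0.023 without anti-PD-1 antibody tumor 2 and Myd88 at 0.047 without anti-PD-1 antibody tumor 3. The planned count tests were not run, although 100% of values under 300 in each tumor were whole multiples of the tumor's step within 0.1. The block with array weights, the block with another scaling or with 1 tumor left out, the counts of separated genes and the tumors numbered 1 left out were chosen after seeing the data. With 3 tumors a group and values near 20 close to the negative control probes, differences of low genes are the least certain.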
